A study of Rattus norvegicus with 6 samples.

Results

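The genes described here, in neonatal rat cardiac fibroblasts (NRCFs), are the 3 chains of complement component C1q (C1qa, C1qb and C1qc) and 7 genes used as markers of macrophages or of blood-derived cells in general (Lyz2, Cd68, Cd163, Mrc1, Csf1r, Adgre1 and Ptprc). They are 10 of the 21857 gene symbols in the count tables. The genes were chosen by their measured difference between the groups, including Adgre1 for its opposite direction, so their differences are given as a description and without a test. NRCFs were grown from hearts of newborn Sprague-Dawley rats at most 3 days old, although the strain field of the labels reads Noway. The hearts were digested with trypsin and collagenase, and the fibroblasts were separated by differential adhesion. The 3 Vector libraries, of genotype WT, came from cells that received an empty expression plasmid. The 3 libraries labelled FTO came from cells that received the same plasmid with the rat FTO coding sequence, which encodes an enzyme that removes m6A methyl marks from RNA. Both plasmids were delivered by lipid transfection. Whether animals were pooled, whether transfected cells were selected and whether the replicates were separate cultures are not given in the sources used here, so the p-values below measure only the spread between these libraries, which may be technical.

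C1q is the recognition subunit of the classical complement pathway. Its A, B and C chains assemble together, each chain being needed, and the finished molecule carries the proteases C1r and C1s. Macrophages are its main source in most tissues. The heart holds resident macrophages between its fibroblasts and muscle cells, and these cells also adhere to culture plastic, so primary fibroblast cultures can contain some. Csf1r is the receptor for Csf1 and Il34, on which most macrophages depend for survival. Lyz2 encodes lysozyme, Cd68 a glycoprotein of late endosomes and lysosomes, Cd163 the haemoglobin scavenger receptor, Mrc1 the mannose receptor, Adgre1 the adhesion receptor known as F4/80, and Ptprc the phosphatase CD45 of all nucleated blood-derived cells.

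To show the regulatory sequence next to which these counts arose, the 250 bases before the annotated start of 4 genes are printed. They are C1qa and C1qb, which lie on the same chromosome with C1qc between them and were both far lower, Lyz2, and Adgre1, which went the other way. The sequences are from RefSeq on the GRCr8 assembly, with C1qa at chr5:154419934-154420183 on the minus strand, C1qb at chr5:154407828-154408077 on the minus strand, Lyz2 at chr7:54798012-54798261 on the minus strand and Adgre1 at chr9:2329190-2329439 on the plus strand. Capitals mark GGAAGT on either strand (ACTTCC where it lies on the other strand). It is one form of the motif bound by factors of the ETS family such as Spi1 (PU.1), the master regulator of macrophage identity.
C1qa: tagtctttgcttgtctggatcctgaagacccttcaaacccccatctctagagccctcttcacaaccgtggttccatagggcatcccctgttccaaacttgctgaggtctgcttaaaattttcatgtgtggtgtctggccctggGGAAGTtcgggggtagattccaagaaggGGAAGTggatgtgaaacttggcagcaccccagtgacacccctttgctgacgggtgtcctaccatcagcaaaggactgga
C1qb: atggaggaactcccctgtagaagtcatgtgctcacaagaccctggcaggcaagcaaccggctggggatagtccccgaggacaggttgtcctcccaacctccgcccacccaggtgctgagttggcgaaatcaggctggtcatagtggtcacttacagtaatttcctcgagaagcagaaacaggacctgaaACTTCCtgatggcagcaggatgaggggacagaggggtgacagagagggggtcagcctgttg
Lyz2: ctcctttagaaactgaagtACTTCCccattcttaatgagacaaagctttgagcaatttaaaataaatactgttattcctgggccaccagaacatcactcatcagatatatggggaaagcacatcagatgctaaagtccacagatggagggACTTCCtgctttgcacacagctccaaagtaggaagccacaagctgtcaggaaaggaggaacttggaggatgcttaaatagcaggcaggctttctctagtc
Adgre1: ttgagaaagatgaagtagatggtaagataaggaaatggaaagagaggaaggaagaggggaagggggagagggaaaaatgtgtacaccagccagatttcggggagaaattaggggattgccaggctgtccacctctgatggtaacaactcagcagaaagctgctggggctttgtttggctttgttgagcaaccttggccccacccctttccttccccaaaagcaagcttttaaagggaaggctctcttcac
The motif was present in 6 of the 9 genes with an entry (C1qa, C1qb, Lyz2, Cd68, Mrc1 and Ptprc), and in 19.2% of 33469 promoters of the same length. The matches lay 101 and 73 bases before the start of C1qa, 55 bases before C1qb, and 225 and 94 bases before Lyz2. GGAAGT was not found in these windows of Adgre1, Cd163 and Csf1r. Shorter or variant forms, such as the GGAA seen in the printed Adgre1 sequence, were not searched, so ETS-type sites may be present there. A motif of the kind bound by interferon regulatory factors, GAAA repeated after any 2 bases on either strand, was present in Adgre1 alone among the 9, and in 3.41% of all promoters. A match of letters does not show binding, and the set was searched as a description. C1qc had no entry.

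The libraries held 13178952 to 17857999 counts each. Fto itself, the gene carried by the plasmid, was at 88.3 ± 1.20 CPM in Vector (library-size-scaled counts after TMM scaling; SD, n = 3) and 92.3 ± 1.32 CPM under the FTO label. The log2 fold change was 0.06 (SE 0.0468, adjusted p = 0.239 by the quasi-likelihood test of edgeR). An approximate 95% interval of the fold, from the SE and a normal quantile, was 0.981 to 1.11. Overexpression was thus not detected in the counts, and these are written of as the libraries labelled FTO throughout. The study reports that FTO overexpression in transfected fibroblasts was checked by qRT-PCR and by protein, with lower m6A on a dot blot. Whether those checks used the cells of these libraries is not given in the sources used here. The 8 fibroblast markers, all tested, had a summed level of 12712 to 12856 CPM in Vector and 12408 to 12906 CPM in the libraries labelled FTO. Single fibroblast markers moved both ways within that sum, 5 higher and 3 lower. Col3a1, which made up most of the Vector sum, fell from 10699 to 3338 CPM, and Dcn rose from 47.0 to 5611 CPM. The near-equal sums therefore do not show an equal fibroblast content. Of the 12941 genes tested, 32.8% were called lower in the libraries labelled FTO and 33.2% higher (adjusted p under 0.05).

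All 10 genes passed the filter on low counts, and in each the 3 Vector libraries lay apart from the 3 libraries labelled FTO. In the libraries labelled FTO, 9 were lower and 1, Adgre1, was higher. Over all genes tested, 34.8% were apart and lower and 35.5% apart and higher. The 10 were selected on this contrast, so nothing is read from these counts. The median log2 fold change of the 10 was -2.78 (0.00 for all genes tested), which also comes from the values that chose them and is a description only. The decreases ranged from 1.88-fold for Cd163 to at least 87.0-fold for C1qb. The smallest decreases were those of Cd163 and Cd68, which stood at 53.1% and 45.9% of their Vector level. In bulk RNA, fewer cells of a type and less RNA per cell cannot be told apart.

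**Figure D1:**
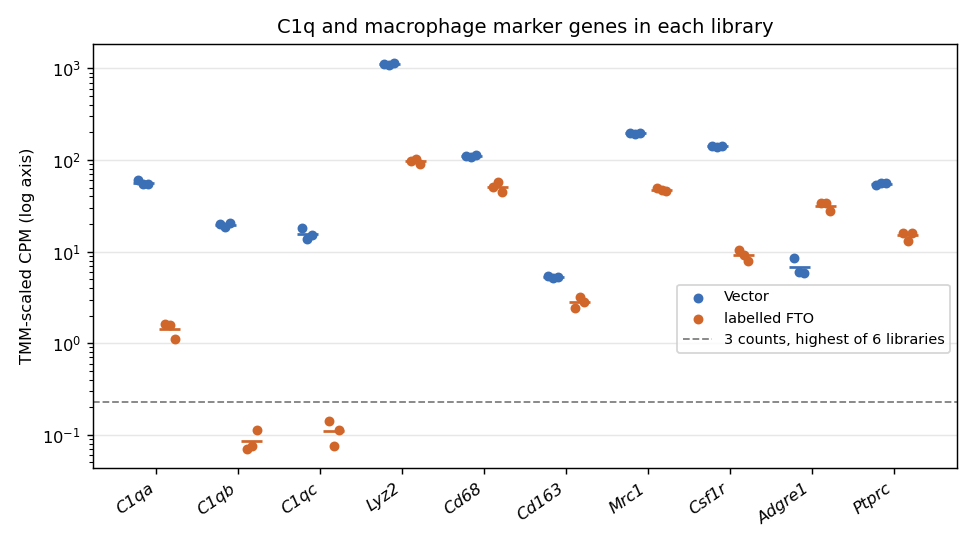
TMM-scaled CPM on a log axis for the 10 genes in each of the 6 libraries, with points for libraries, horizontal lines for group means and a dashed line for the level of 3 counts (the highest of the 6 libraries). C1qb and C1qc sat below the dashed line in every library labelled FTO, and Adgre1 was the one gene with its FTO points above its Vector points.

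The C1q chains fell furthest of the 10. C1qa, the A chain, was at 60.1, 54.3 and 54.7 CPM in the Vector libraries and at 1.61, 1.59 and 1.12 CPM in the libraries labelled FTO. C1qb, the B chain, was at 20.05, 18.7 and 20.4 CPM against 0.0701, 0.0755 and 0.112 CPM, and C1qc, the C chain, at 18.1, 13.7 and 15.1 CPM against 0.140, 0.0755 and 0.112 CPM. Every library labelled FTO was thus far below every Vector library for all 3 chains. In raw counts, C1qa had 822, 810 and 790 in Vector and 23, 21 and 20 in the libraries labelled FTO. C1qb had 274, 279 and 294 counts against 1, 1 and 2, and C1qc 247, 204 and 218 counts against 2, 1 and 2. The last 2 genes were therefore at or under the floor of 3 counts and their decrease can be bounded only from below. C1qa was 39.2-fold lower (log2 fold change -5.31, SE 0.120), C1qb at least 87.0-fold lower and C1qc at least 68.9-fold lower, the bounds being computed against 3 counts per library. Summed over the chains, C1q RNA was at 91.7 ± 5.91 CPM in Vector and 1.63 ± 0.258 CPM for the libraries labelled FTO, or 56.1-fold lower. Ordered from the lowest fitted log2 fold change among the 12941 genes tested, C1qa was number 21.

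The chains did not keep their proportions. In the Vector group C1qa gave 61.5% of the C1q counts (2422 of 3938, exact 95% interval 60.0 to 63.0), and the 3 libraries ranged from 60.7% to 62.6%. In the libraries labelled FTO it gave 87.7% (64 of 73, interval 77.9 to 94.2), with libraries at 88.5%, 91.3% and 83.3%. The counts of C1qb per count of C1qa were 0.333, 0.344 and 0.372 in Vector and 0.0435, 0.0476 and 0.100 in the libraries labelled FTO, where the numerator was 1 or 2 counts. The C1qc to C1qa ratio went from 0.276 ± 0.0243 to 0.0782 ± 0.0273 (SD, n = 3). The residual C1q signal was thus mostly C1qa, on few counts. These intervals treat every count as independent and leave out the spread between libraries. The variation among Vector libraries was 5.75% (coefficient of variation) for C1qa, 4.42% for C1qb and 14.3% for C1qc.

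C1qb, C1qc and C1qa follow each other in this order on rat chromosome 5 in the RefSeq table. The measured genes around them changed by less and in both directions. Ephb2, an Eph receptor next to C1qb, was at 20.5 CPM in Vector and 27.7 CPM in the libraries labelled FTO (log2 fold change 0.44, adjusted p = 0.00041 by edgeR). On the other side, beyond Epha8, which was at or under the floor in all libraries, Zbtb40 fell from 11.9 to 8.16 CPM (-0.53, adjusted p = 0.0035) and Wnt4 rose from 10.4 to 19.1 CPM (0.89, adjusted p = 0.00028). Tex46 and Lactbl1 are not analysed here.

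Csf1r and Lyz2 came next in the order of decrease. Csf1r was at 143.5, 139.2 and 142.8 CPM in the Vector libraries and at 10.5, 9.21 and 7.87 CPM in the libraries labelled FTO, 15.5-fold lower (log2 fold change -3.96). Its coefficient of variation was 1.63% in Vector and 14.0% in the libraries labelled FTO. Lyz2 had 15315, 16276 and 16420 counts in Vector and 1401, 1365 and 1639 counts in the libraries labelled FTO. Its level was 1120.4, 1092 and 1137 CPM against 98.3, 103 and 91.5 CPM, 11.4-fold lower (-3.52). Lyz2 thus kept at least 1365 counts in each library while C1qb and C1qc were close to none. The RefSeq table lists another rat lysozyme gene, Lyc2, and how reads shared by close copies were counted is not given in the sources used here, so the Lyz2 counts may include such reads.

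Mrc1 and Ptprc fell by similar factors. Mrc1 was at 195, 193 and 196 CPM in the Vector libraries and at 49.5, 47.3 and 45.7 CPM in the libraries labelled FTO, 4.10-fold lower (log2 fold change -2.04). Ptprc was at 53.8, 55.6 and 55.5 CPM against 16.1, 13.1 and 16.03 CPM, 3.65-fold lower (-1.86). The coefficient of variation of Mrc1 and Ptprc within either group was at most 11.1%. Cd68 and Cd163 changed least. Cd68 was at 112, 107 and 114 CPM in Vector and at 50.7, 57.2 and 44.9 CPM in the libraries labelled FTO, 2.18-fold lower (-1.13). Cd163 rested on few counts, with 74, 76 and 77 in Vector and 35, 42 and 50 in the libraries labelled FTO, or 5.28 ± 0.163 against 2.81 ± 0.359 CPM, 1.88-fold lower (-0.91). The groups did not overlap for either gene.

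Adgre1 went the other way. It had 117, 89 and 85 counts in the Vector libraries and 485, 444 and 492 counts in the libraries labelled FTO. Its level was 8.56, 5.97 and 5.89 CPM against 34.0, 33.5 and 27.5 CPM, 4.65-fold higher (log2 fold change 2.22). Its Vector values were the most variable of the 10 in that group, at 22.3%, owing to replicate 1, yet the highest Vector library was below the lowest library labelled FTO. F4/80 is widely used as a general macrophage marker in mice, and here it moved against C1q, Csf1r and Ptprc.

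To set the genes against a marker shared by all blood-derived cells, each was divided by the Ptprc counts of the same library. Such ratios of raw counts are compared between groups for 1 gene at a time, since gene lengths differ. C1qa gave 1.12, 0.977 and 0.985 counts per Ptprc count in Vector and 0.100, 0.121 and 0.0697 in the libraries labelled FTO, 10.6-fold lower. C1qb and C1qc were at least 20.8-fold and at least 16.5-fold lower per Ptprc count, taken against 3 counts per library and the library labelled FTO with the fewest Ptprc counts. Csf1r went from 2.58 ± 0.0836 to 0.614 ± 0.110 (SD, n = 3; 4.201-fold lower) and Lyz2 from 20.3 ± 0.617 to 6.56 ± 1.13 (3.10-fold lower). These 5 genes thus fell further than Ptprc. Mrc1 did not separate, with 3.64, 3.47 and 3.53 in Vector and 3.08, 3.60 and 2.85 in the libraries labelled FTO. Cd68 was 1.70-fold higher and Cd163 1.97-fold higher per Ptprc count, with no overlap of the groups. Adgre1 went from 0.124 ± 0.0303 to 2.13 ± 0.419, 17.1-fold higher. The 9 genes therefore did not move by a common factor. These ratios come from the contrast that chose the genes and were not tested. Per count of Csf1r, C1qa was 2.55-fold lower, C1qb at least 5.65-fold and C1qc at least 4.47-fold lower, while Lyz2 was 1.36-fold and Cd68 7.15-fold higher.

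**Figure D2:**
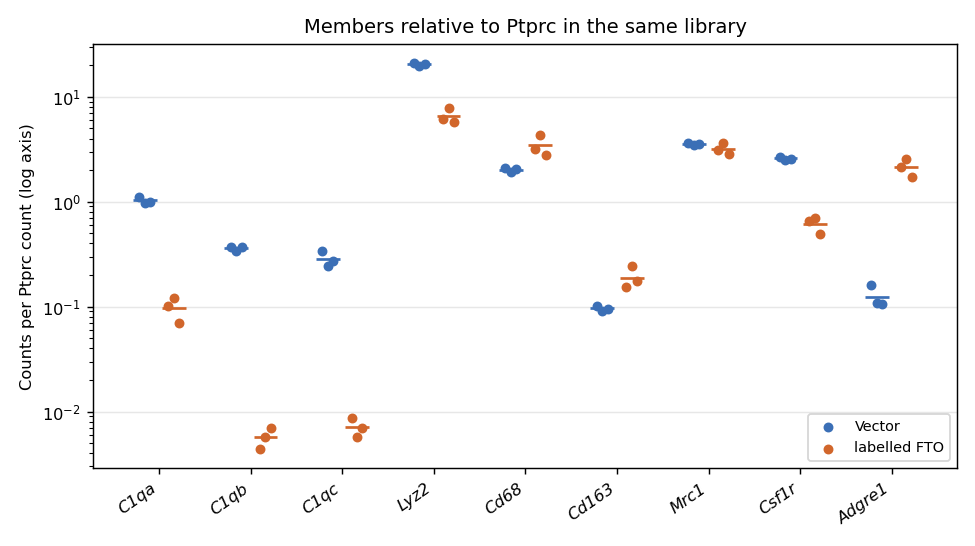
Counts of each gene per Ptprc count of the same library on a log axis, in the 6 libraries. The C1q genes, Csf1r and Lyz2 lay lower in the libraries labelled FTO, Mrc1 overlapped between the groups, and Cd68, Cd163 and Adgre1 lay higher.

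Other macrophage genes were examined in 4 lists that exclude the 10 genes. Of 66 genes listed, 63 were matched, 3 (Cd52, Marco and Timd4) had no count in any library and 59 were tested. Of these, 45 were called lower (76.3%, where 32.8% of all genes were), 11 higher (18.6%, where 33.2% were) and 3 neither (Maf, Tfec and Lyve1), with a median log2 fold change of -1.43. The lists were written with the direction of the 10 genes known and are not independent evidence of it. Among genes of leukocyte signalling, 15 of 18 fell and 3 rose (median -1.75). Laptm5, a lysosomal membrane protein of blood cells, fell from 119.6 to 30.1 CPM (adjusted p = 3.2e-13 by edgeR), and Itgb2, the beta chain of leukocyte integrins, fell from 85.1 to 33.2 CPM (-1.36, adjusted p = 1e-10). Cd48 and Arhgdib rose by 0.31 (adjusted p = 4e-05) and 1.06 (adjusted p = 9.9e-11).

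Among phagocyte receptors and oxidase subunits, 16 of 20 fell and 4 rose (median -1.32). Gpnmb, a glycoprotein of activated macrophages, fell from 2008 to 671 CPM (-1.58, adjusted p = 1.6e-14). Cybb, the catalytic subunit of the phagocyte oxidase, Cd14, the lipopolysaccharide co-receptor, and Msr1, a scavenger receptor, fell by 0.84, 0.74 and 1.43 on the log2 scale (adjusted p = 2.7e-10, 8.2e-09 and 2.4e-12). Fcgr2b, the inhibitory IgG receptor, singled out after its values were seen because it moved like Adgre1, rose from 9.14 to 47.3 CPM (2.37, adjusted p = 1.8e-12). Among genes of resident macrophages, 9 of 11 fell (81.8%), 1 rose (9.09%) and 1 passed neither way (median -2.89), beside the same shares of all genes. Stab1, a scavenger receptor, was at 105, 114 and 116 CPM in Vector and 2.53, 3.10 and 3.30 CPM in the libraries labelled FTO, 37.6-fold lower (-5.22, adjusted p = 3e-16), close to the factor of C1qa. Siglec1, a sialic-acid receptor, fell by 2.98 (adjusted p = 1.5e-12) and the growth-arrest factor Gas6 by 0.58 (adjusted p = 1.9e-07), while the chemokine Pf4 rose by 0.57 (adjusted p = 1.2e-05).

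**Figure D3:**
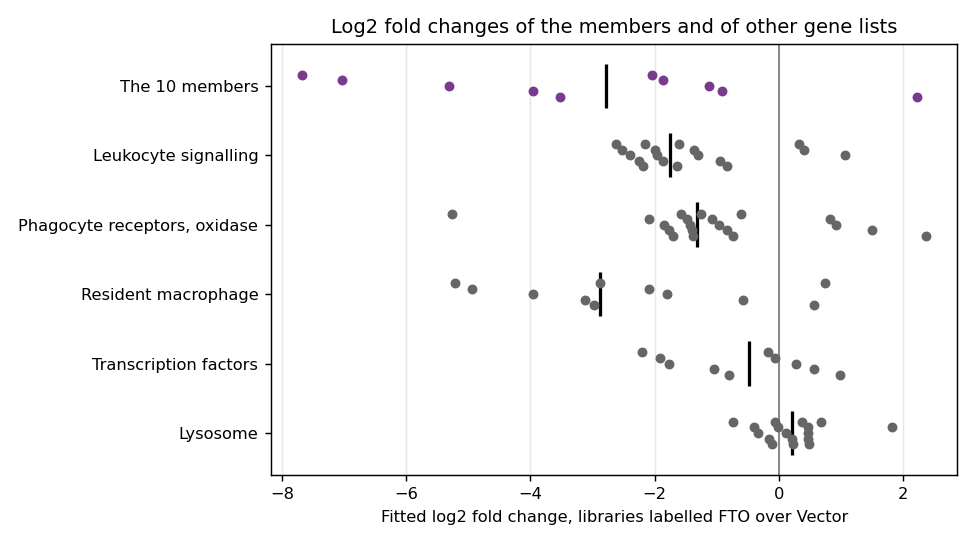
Fitted log2 fold change (libraries labelled FTO over Vector) of each tested gene, in a row each for the 10 genes, the 4 macrophage lists and lysosome genes, with a dot per gene and a black bar at the median. The medians of the macrophage lists lay between -2.89 and -0.49 and that of the lysosome list at 0.21.

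Of 10 transcription factors of macrophages, 5 were lower, 3 higher and 2 neither (median -0.49), where 32.8% of all genes tested were lower and 33.2% higher. Runx1 fell by 1.04 (adjusted p = 3.2e-09), Irf8 rose by 0.56 (adjusted p = 0.00117), and Maf was at 25.1 and 24.0 CPM (-0.07, adjusted p = 0.453). Irf5 rose by 0.27 (adjusted p = 0.0163), a call that was lost without Vector replicate 1 (adjusted p = 0.084). Spi1, of the ETS family, one motif form of which is marked above, fell from 28.4 to 6.22 CPM (-2.20, adjusted p = 2.8e-11 by edgeR). It was singled out after its values were seen, and its binding to the printed sequences was not tested. Cd68 is a lysosomal protein, and 17 other lysosome genes were compared for that reason. Of these, 4 fell (23.5%), 10 rose (58.8%) and 3 passed neither way (median 0.21), beside the same 32.8% and 33.2% of all genes. Psap was at -0.02 (adjusted p = 0.616), and Lamp1 rose by 0.22 (adjusted p = 0.00028), Cd63 by 0.48 and Grn by 0.47. The log2 fold change of Cd68 was below the lowest of them, -0.73, a difference that was not tested.

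The ligands of Csf1r moved against their receptor. Csf1 was at 302, 296 and 300 CPM in the Vector libraries and at 614, 577 and 658 CPM in the libraries labelled FTO (log2 fold change 1.04, adjusted p = 3e-11 by edgeR). Il34, the other ligand, rose from 1.35 to 4.33 CPM (1.67, adjusted p = 1e-05). The related growth factors Csf2 and Csf3, which act on myeloid cells through other receptors, were at no more than 1 count in any Vector library and rose at least 13.2-fold and at least 413-fold. Of their receptors, Csf2ra fell from 27.3 to 14.7 CPM (-0.90, adjusted p = 1.5e-06), and Csf2rb, the common beta chain, rose from 11.0 to 498 CPM (5.50, adjusted p = 3e-18). Csf3r had too few counts to be tested. Of 6 genes of this axis tested, 5 rose and 1 fell, where 33.2% of all genes tested rose and 32.8% fell. Among 6 genes used as signs of macrophage activation states, 4 rose and 2 fell, the latter share being near that of all genes. Il1b, an inflammatory cytokine, went from 0.424 to 36.6 CPM (6.42, adjusted p = 6e-13), Arg1 rose by 0.61 (adjusted p = 0.00119) and Clec10a by 0.73 (adjusted p = 0.00171), and the co-stimulatory receptor Cd80 fell by 0.91 (adjusted p = 7.8e-05).

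Of 10 partners of C1q, 7 rose, 1 fell and 2 passed neither way (median 2.56), where 33.2% of all genes tested rose and 32.8% fell. C1r, the first protease carried by C1q, rose from 559.8 to 2374 CPM (2.08, adjusted p = 1.9e-15), and C1s, the second, rose from 339 to 2786 CPM (3.04, adjusted p = 8.2e-17). Serping1, the inhibitor of both proteases, was at 48.2, 44.0 and 47.5 CPM in Vector and 1554, 1415 and 1449 CPM in the libraries labelled FTO (4.98, adjusted p = 2.3e-18). Their substrates C2 and C4 rose as well, C2 from 3.52 to 32.2 CPM (3.19, adjusted p = 2e-11), C4a from 0.790 to 37.7 CPM (5.56, adjusted p = 8.6e-14) and C4b from 0, 4 and 3 counts in the Vector libraries to 746, 626 and 1147 counts (adjusted p = 2.4e-13). C4a and C4b are near-identical copies, so the division of reads between them is uncertain. Of the proteins that bind C1q on cells, Calr rose by 0.27 (adjusted p = 1.1e-05), Cd93 fell by 0.59 (adjusted p = 0.00032), and C1qbp and Lrp1 were at 0.09 and 0.00 (adjusted p = 0.107 and 0.984), although both were called without FTO replicate 3 (adjusted p = 0.0115 and 0.0116). Of 13 genes that share the globular C1q domain without being part of C1q, 5 were lower (38.5%), 5 higher (38.5%) and 3 neither (median 0.20), shares near those of all genes. C1qtnf1 rose by 2.52 (adjusted p = 1.6e-15) and Emilin1 by 1.56, while Col8a1 fell by 0.39 and C1qtnf5 by 0.40.

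**Figure D4:**
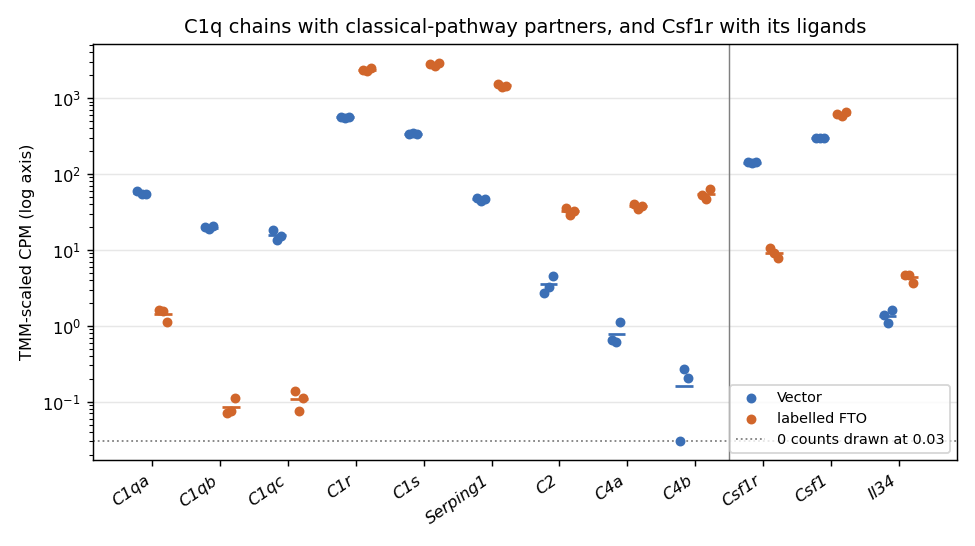
TMM-scaled CPM on a log axis in the 6 libraries for the C1q chains, their proteases, inhibitor and substrates, and for Csf1r with its ligands Csf1 and Il34. The 3 chains and Csf1r lay lower in the libraries labelled FTO and the other 8 genes lay higher, and the dotted line at the bottom holds the one library without a C4b count.

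The genes whose levels were nearest to the mean C1q profile over the 6 libraries were Fras1, Rims1, Parvg, Kcnmb1, Piezo2, Col9a3, Gna15 and Trpc6, by the Euclidean distance of log2(CPM + 0.5), among 12340 genes with at least 100 counts in all. Fras1, an extracellular matrix protein, was nearest at a distance of 0.778, with 19.9, 25.4 and 22.1 CPM in Vector and 0.701, 0.453 and 0.614 CPM in the libraries labelled FTO. The other 7 lay at distances of 1.39 to 1.71. None of the 8 was on a macrophage list. Those lists were chosen by hand and are short, so absence from them does not show that a gene is foreign to blood-derived cells. Which cells made the RNA of the 8 was not tested. The distance follows the level of each gene as well as the difference between the groups, so genes with a like decrease at another level are not found. It is a description of 6 libraries.

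Markers of other cell types were looked at beside these values and beside the 32.8% lower and 33.2% higher over all genes. Of 12 lymphocyte markers, 5, among them Cd3d and Cd3e, had no count in any library, and the summed level was 5.33 to 6.44 CPM in Vector and 1.26 to 1.56 CPM in the libraries labelled FTO. Cd8a, the one called, fell from 4.15 to 0.195 CPM (-4.33, adjusted p = 9.8e-09). Of 5 mast cell markers, 4 had no count, and Kit fell from 8.996 to 2.32 CPM (adjusted p = 2.4e-08). The 7 neutrophil markers summed to 1.66 to 2.56 CPM against 6.14 to 9.44 CPM, and of 3 tested 2 rose and 1 fell. The 5 dendritic cell markers summed to 8.45 to 9.97 CPM against 6.87 to 9.05 CPM, with 1 tested and not called. Of 7 endothelial markers tested, 3 fell, 3 rose and 1 passed neither way, and their sum was 126.2 to 131.6 CPM against 110.6 to 116.8 CPM. Of 7 cardiomyocyte markers, 6 rose and 1 fell, the sum going from 1408 to 1429 CPM in Vector to 1969 to 1998 CPM. Of 8 fibroblast markers, 5 rose and 3 fell, with Col3a1 falling from 10699 to 3338 CPM and Dcn rising from 47.0 to 5611 CPM (adjusted p = 1.7e-12 and 1.2e-19). The part of these other cell types in the values of the 10 genes and of the macrophage lists, Gpnmb, Gas6 and Runx1 among them, was not tested.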

How the data were processed

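RNA-seq was performed on 6 libraries of NRCFs, 3 Vector and 3 labelled FTO, grouped by the genotype labels. The deposited files hold raw read counts per gene symbol, 1 file for each library. The submitters' processing notes name Trimmomatic and the rn6 genome, and the aligner, counting program, annotation and use of strand are not given in the sources used here, so genes with near-identical copies or antisense partners are uncertain. Genes were filtered with filterByExpr of edgeR 4.0.16 (minimum count 10), leaving 12941 genes with at least 99.93% of the counts of each library, and scaled by TMM (factors 0.995 to 1.005). The groups were compared with the quasi-likelihood test of edgeR in R 4.3.3, two-sided, without covariates, with Benjamini-Hochberg adjustment across every gene tested. A floor of 3 counts, worth 0.168 to 0.227 CPM, gave lower bounds of fold changes. No replicate pair agreed within sampling noise (chi-square divided by its degrees of freedom, 1.56 to 8.02). The 10 genes and all lists were chosen with earlier results of these data known. Named genes were the 10, up to 4 genes of highest mean CPM per list, all tested genes of the Csf axis and of the C1q partners, and the 8 nearest profiles, and others were named after their values were seen. Itgam, Mpeg1, Cbr2, Nos2 and Ttn are not analysed here, and C1qtnf12 was matched as Fam132a. Alternatives were DESeq2 1.42.0, limma-voom (limma 3.58.1), other scalings and filters, a replicate block and leaving out each library. The procedure was tested on simulated counts in which far fewer genes differed than were called here. Promoter sequences came from RefSeq (GRCr8) and were matched by symbol for 9 of the 10 genes.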

Additional observations from a re-analysis of the deposited data

How the results depend on the processing

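All 10 genes kept their direction in the 13 alternatives and lay apart between the groups in each of the 8 that changed the scaling or left out a library. With the main scaling, 34.8% of all genes tested were apart and lower and 35.5% apart and higher. The 10 were selected on this contrast, so their stability is a description only. Their log2 fold changes stayed within the replicate spread, except C1qb at -7.38 with limma-voom, -7.81 with DESeq2 and -7.92 without FTO replicate 3, and C1qc at -6.78 with limma-voom. The number of all genes called ranged from 7795 with DESeq2 to 9009 without a filter, around 8531, and from 7902 to 8719 when 1 library was left out. Of the 59 macrophage-list genes, 54 to 57 were called, around 56, with 44 to 46 lower and 9 to 12 higher. Among 140 listed genes, 8 had another call in at least 1 alternative. The calls of Plek and Irf5 were lost without Vector replicate 1 and that of Npc2 in 6 alternatives, and Lyve1 was called only without FTO replicate 3 (adjusted p = 0.0141). The replicate numbers did not pair the libraries, since same-numbered libraries deviated from their group means with correlations of 0.004, -0.079 and 0.035 across genes, against -0.115 to 0.109 for other pairs. With the replicate block, 8399 genes and 56 macrophage-list genes were called. Depth limits C1qb and C1qc, whose remaining level rests on 1 or 2 counts in each library labelled FTO.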
